A study of Mus musculus with 2 samples.

Results

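Chemokines are small secreted or membrane-bound proteins that direct leukocytes along concentration gradients, and their receptors are seven-pass membrane proteins that signal through Gi-type G proteins. In the small intestine, epithelial cells make chemokines such as CCL25, and intraepithelial lymphocytes (IELs), the T cells that lie between these epithelial cells, carry the matching receptors and release chemokines of their own. Chemokine and chemokine receptor genes were followed here in TCRαβ+CD8αα+ IELs, which belong to the "unconventional" T cells that are selected on self antigen in the thymus. Genes were taken by symbol, as the CC, CXC and XC ligands and receptors, *Cx3cl1*, *Cx3cr1*, the atypical receptors *Ackr1* to *Ackr4*, and *Ccrl2*. This gave 57 genes, 34 ligands and 23 receptors, with 69 of the 55679 gene probes, among 20887 named genes in all.

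The study asked how deletion of *Rbpj*, the transcription factor that Notch receptors act through, affects these cells. RNA of sorted cells was measured on 2 mouse arrays of 1 color, 1 array per genotype. The control array carried RNA of Rbpjf/f mice, for which the labels name no Cre, although the study's text describes controls that are Rbpj+/+ and carry CD4-Cre. The other array, labelled RFF4, carried RNA of CD4-Cre Rbpjf/f mice. In the latter, Cre is driven by *Cd4* regulatory sequence and so acts across αβ T cells, not in CD8αα+ IELs alone. All mice were C57BL/6, males and females pooled, of 8 to 12 weeks. Cells were sorted from the small intestine as TCRγδ- CD4- CD8β-, and the RNA of several isolations was pooled before 150 ng was labelled. With 1 pooled sample per genotype there was no replicate check, so no test was made and each value below describes these 2 arrays. In such bulk RNA, more cells of a type and more RNA per cell cannot be told apart.

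Levels are given as log2 signal minus the 75th percentile of the array's gene spots, so that a level of 0 is the signal at that percentile, and differences as RFF4 minus control on this log2 scale. The ± beside a difference is the error that the scanner software assigned to both spots. Over 257 gene probes printed repeatedly, the spots gave a technical SD of the difference of 0.14. It was 0.21 for probes with a mean level below 0 and 0.07 for the others. The ± and this SD cover technical error only. The array labelled RFF4 was dimmer, with a 75th percentile of 227 against 510 signal units and 49.7% against 57.2% of gene spots well above background, while 8 spike-in controls differed by −0.06 before scaling. The targeted gene did not check the label, since *Rbpj* had a level of 1.96 on the control array and 2.28 on the other, and a further probe was 0.82 higher there. The Notch target genes *Heyl* and *Dtx1* were lower on the array labelled RFF4, with log2 differences of −3.80 and −3.63. T cell genes were bright on both arrays, with *Cd3e* at 8.10 and 8.44, *Cd8a* at 6.24 and 6.18, and *Gzmb* at 8.90 and 8.75, whereas *Cd8b1*, which the sort should remove, was at −3.52 and, not well above background, at −4.25. *Cd4*, whose protein the sort also selected against, was well above background on both arrays, at 1.67 and 1.80.

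Chemokine genes were more often higher than lower on the array labelled RFF4. Of the 57 genes, 29 were well above background on at least 1 array, 24 of them on both, 4 on the array labelled RFF4 alone and 1 on the control array alone. A difference or a bound could be given for 28, of which 17 lay past 2-fold in favour of the array labelled RFF4 and 0 past 2-fold the other way. Over all named genes, 12.3% were more than 2-fold higher and 5.05% more than 2-fold lower. The 17 genes comprise 10 ligands and 7 receptors, and 4 of them (*Ccl24*, *Cxcl12*, *Ccr8* and *Cxcr5*) entered only because they passed the background filter on the array labelled RFF4. Among genes above background on both arrays, 13 of 24 chemokine genes and 1511 of 12955 named genes were more than 2-fold higher. The dimmest level called well above background, the detection floor, was −5.51 on the control array and −4.29 on the other. A gene with a control level between these could pass on both only if higher on the array labelled RFF4. This held for *Cx3cr1*, *Ccr10* and *Cxcl9*, which are among the 13, for *Ccr3*, and for genes of the other lists at such levels. Past 4-fold, 4 chemokine genes were higher (*Cx3cr1*, *Ccr8*, *Ccl9* and *Ccl6*) and 0 lower, against 1.85% and 0.585% of all named genes. The median log2 difference was 1.18 over the ligands, 1.22 over the receptors and −0.01 over all named genes. Over genes above background on both arrays it was 1.04 for the ligands and 0.79 for the receptors. All these differences are relative to the other genes of the array. Setting the spike-in controls equal lowers each measured difference alike by 1.11. The detection floors move too, so that 29 chemokine genes, now with *Cxcl13*, and 14210 named genes had a value. The median was then −1.09 over all named genes, −0.021 over the ligands and 0.11 over the receptors. On that scale 3 chemokine genes were more than 2-fold higher and 4 more than 2-fold lower, beside 1.46% and 55.7% of all named genes.

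**Figure D1:**
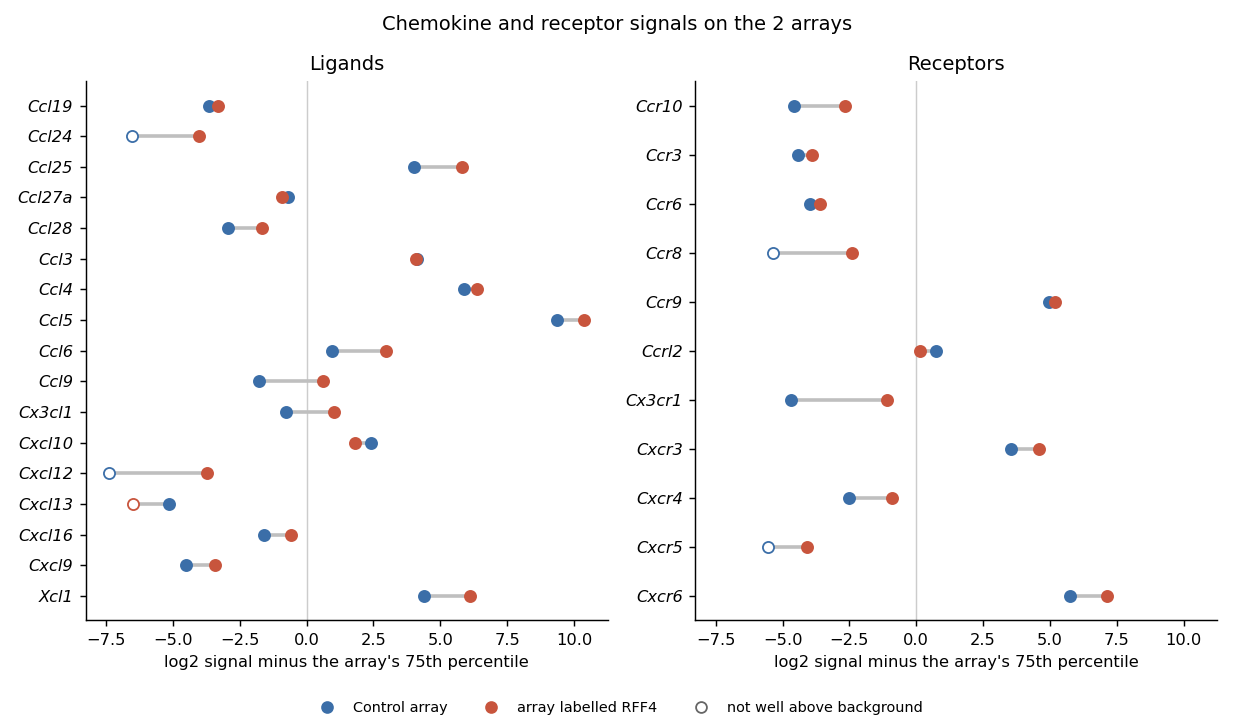
Level of each chemokine gene (log2 signal minus the array's 75th percentile) that is described here and was well above background on at least 1 of the 2 arrays, ligands on the left and receptors on the right. Each point is 1 array, open points were not well above background, and the longest measured gap between 2 filled points is that of *Cx3cr1*, from −4.68 to −1.10.

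Since RBPJ binds DNA at the core letters TGGGAA, these letters were searched on both strands in the RefSeq promoter windows (GRCm38.p6, 250 bases before to 50 after each start). The windows of 4 genes are shown up to 6 bases after the start, 5′ to 3′ on the gene's strand, with matches in capitals. *Cx3cr1* and *Ccl9* had the largest differences measured on both arrays, and *Xcl1* and *Cxcr6* the largest among the T cell ligands and the gut T cell receptors. Their positions are chr9:120068291-120068546 (minus strand) for *Cx3cr1*, chr11:83578631-83578886 (minus) for *Ccl9*, chr1:164935517-164935772 (minus) for *Xcl1* and chr9:123806227-123806482 (plus) for *Cxcr6*.
Cx3cr1: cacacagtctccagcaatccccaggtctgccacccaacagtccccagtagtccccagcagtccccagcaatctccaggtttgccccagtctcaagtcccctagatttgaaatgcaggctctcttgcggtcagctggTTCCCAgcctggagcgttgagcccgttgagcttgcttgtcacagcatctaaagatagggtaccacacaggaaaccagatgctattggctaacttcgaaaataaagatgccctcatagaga
Ccl9: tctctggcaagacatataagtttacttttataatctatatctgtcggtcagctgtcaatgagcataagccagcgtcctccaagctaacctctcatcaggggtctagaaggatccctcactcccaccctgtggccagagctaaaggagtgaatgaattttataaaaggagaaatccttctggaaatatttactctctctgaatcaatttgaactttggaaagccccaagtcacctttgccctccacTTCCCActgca
Xcl1: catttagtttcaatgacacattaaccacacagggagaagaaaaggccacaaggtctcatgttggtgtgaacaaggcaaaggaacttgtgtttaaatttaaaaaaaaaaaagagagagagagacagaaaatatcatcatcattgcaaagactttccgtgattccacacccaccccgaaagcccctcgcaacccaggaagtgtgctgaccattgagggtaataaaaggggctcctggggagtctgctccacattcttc
Cxcr6: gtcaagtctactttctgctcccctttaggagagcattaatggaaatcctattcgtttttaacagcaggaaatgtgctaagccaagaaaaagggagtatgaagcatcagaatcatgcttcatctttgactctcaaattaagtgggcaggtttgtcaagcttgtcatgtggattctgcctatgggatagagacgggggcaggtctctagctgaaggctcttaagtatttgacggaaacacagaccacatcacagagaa
*Cx3cr1* and *Ccl9* each held 1 match, read on the opposite strand and beginning 114 and 5 bases before the start, and the windows of *Xcl1* and *Cxcr6* held none. Of the 22 detected chemokine genes with a window, 8 held a match, as did 28.3% of all genes with a window and 25.6% of all 32851 windows. Of the genes more than 2-fold higher, 5 of 13 held one, and of those with a smaller difference 2 of 8. *Ccl4*, *Ccl5*, *Ccl24*, *Ccr10*, *Cxcl16* and *Cxcr5* were not searched here. A match in this window is a description of the letters and not of a bound site.

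Ligands that T and NK cells release differed widely among themselves. CCL3, CCL4 and CCL5 attract T cells and macrophages, and XCL1 binds XCR1 on dendritic cells that cross-present antigen. The level of *Xcl1* was 4.40 on the control array and 6.11 on the array labelled RFF4, a log2 difference of 1.71 ± 0.20, or 3.27-fold. That of *Ccl5* was 9.38 and 10.38, a difference of 0.997 ± 0.20, which lies just under 2-fold. That of *Ccl4* was 5.88 and 6.39, a difference of 0.51 ± 0.20. *Ccl3* was near-equal on the arrays, at 4.14 and 4.07, a difference of −0.06 ± 0.20. *Ccl3* and *Ccl4* are neighbours on chromosome 11 and their annotated spans overlap in RefSeq. Their differences lay 0.57 apart, with an error of 0.20 on each, and were 0.21 for *Ccl4* and −0.10 for *Ccl3* with quantile normalization. *Ccl5* differed between the normalization methods. All genes with a mean level between 9 and 10 had a median difference of 0.77 (45 genes, 5th to 95th percentile 0.45 to 1.02), and *Ccl5* fell to 0.42 with cyclic loess and to −0.02 with quantile normalization, while *Xcl1* stayed at 1.55 under both. Granzyme genes, whose proteins the same cells release to kill targets, stood at differences of 1.02 for *Gzma* and −0.15 for *Gzmb*.

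The interferon-γ-induced ligands of CXCR3 lay on opposite sides of 0. *Cxcl10* was among the few chemokine genes that were lower on the array labelled RFF4, with levels of 2.40 and 1.81 and a difference of −0.60 ± 0.20. *Cxcl9*, next to it on chromosome 5, was dim but measured on both arrays, at −4.49 and −3.41, a difference of 1.09 ± 0.30, and its further probe gave 1.32. The control level of *Cxcl9* lay below the detection floor of the other array (−4.29), so it could pass on both only if higher there. *Cxcl9* was short of 2-fold with cyclic loess (0.994), quantile normalization (0.95) and median scaling (0.91), and its difference was −0.021 with the spike-in controls set equal. The third ligand of this receptor, *Cxcl11*, had no probe that could be named.

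**Figure D2:**
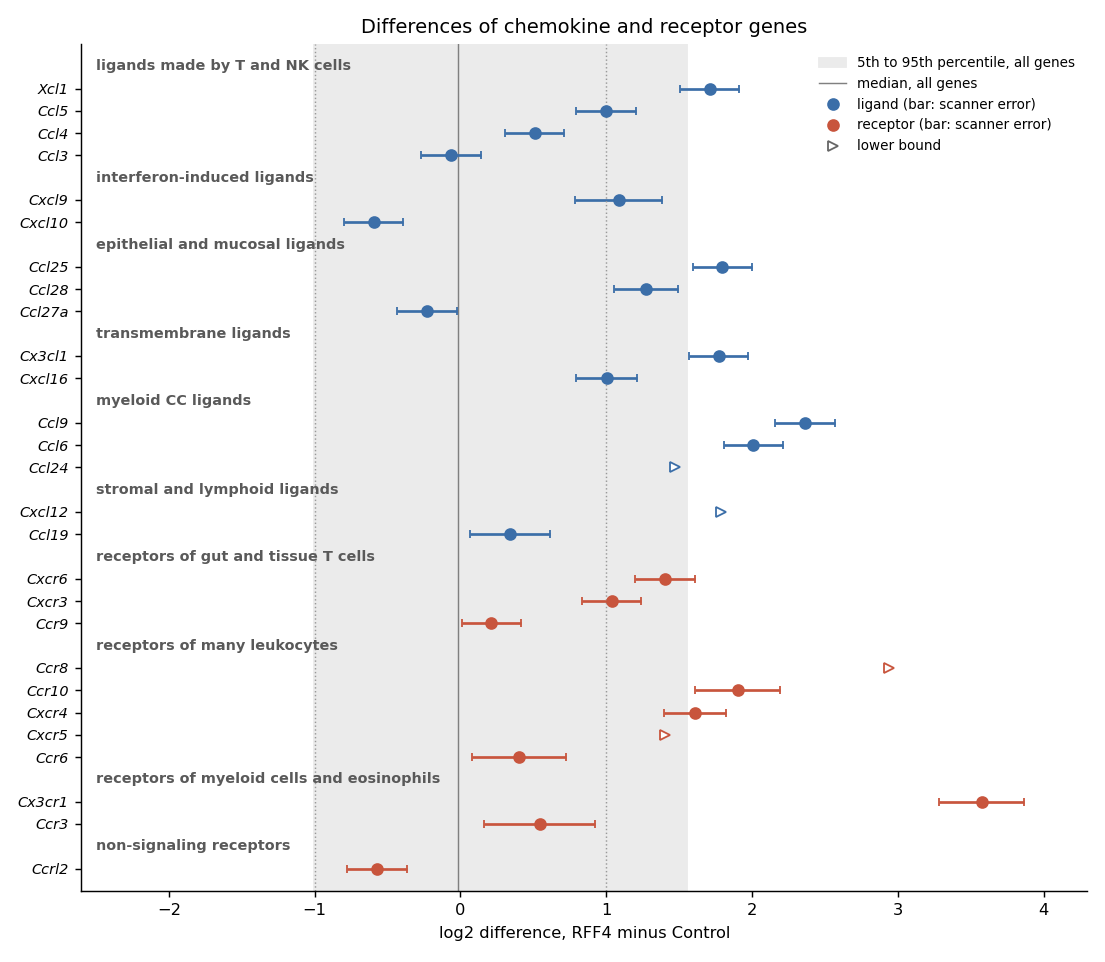
Log2 difference (RFF4 minus control) of 27 of the 28 chemokine genes that have one, grouped by role. Bars are the scanner error of both spots, open triangles are lower bounds, the grey band spans the 5th to 95th percentile of all named genes (−1.003 to 1.55) and dotted lines mark 2-fold; 23 of the genes plotted lie above 0 and 4 below, and setting the spike-in controls equal would shift all of them by −1.11.

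Of 3 detected epithelial and mucosal ligands, 2 were past 2-fold in favour of the array labelled RFF4, as were both membrane-anchored ligands, beside 12.3% of all named genes, and the epithelial ligand gene *Ccl20* was not well above background on either array. *Ccl25*, whose product draws CCR9-bearing T cells and plasma cells to the small intestine, had levels of 4.03 and 5.83, a difference of 1.80 ± 0.20, or 3.47-fold. *Cx3cl1*, which encodes the membrane-anchored chemokine fractalkine, had levels of −0.76 and 1.01, a difference of 1.77 ± 0.20, or 3.41-fold. *Ccl28*, a mucosal ligand of CCR10, had levels of −2.95 and −1.68, a difference of 1.27 ± 0.22. *Cxcl16*, the membrane-anchored ligand of CXCR6, lay just past 2-fold, with levels of −1.58 and −0.58, a difference of 1.002 ± 0.21. It fell short of 2-fold in the authors' normalized table (0.99) and with quantile normalization (0.97), median scaling (0.83) and normexp background correction (0.79), and was −0.10 with the spike-in controls set equal. The exception was *Ccl27a*, a ligand of CCR10 best known from skin, with levels of −0.69 and −0.92, a difference of −0.23 ± 0.21, and 0.12 and −0.11 at its other probes. A near-identical copy of this gene exists in the mouse, so its signal may be shared. *Ccl25* has a further probe, to a non-coding transcript of the gene, which was 1.11 lower on the array labelled RFF4 (levels of −1.77 and −2.88). Averaged with it, *Ccl25* differed by 0.34.

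Genes of the epithelial cells themselves were measured beside these ligands. Of 17 epithelial marker genes, all well above background on both arrays, 15 were over 2-fold brighter on the array labelled RFF4 and 0 were lower by as much, with a median difference of 1.51 and a range of 0.31 to 1.89. Their summed signal, in units of the 75th percentile, was 231 on the control array and 705 on the other. The keratin gene *Krt20* had a difference of 1.80, the villus actin-bundling gene *Vil1* 1.80 and the fatty acid-binding gene *Fabp2* 1.51, whereas the adhesion genes *Epcam* and *Cdh1* had 0.40 and 0.31. The part of epithelial transcripts in the values of *Ccl25*, *Ccl28*, *Cxcl16* and *Cx3cl1*, or of other ligands such as *Ccl6* and *Ccl9*, was not tested.

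Among ligands above background on both arrays, the largest differences were those of *Ccl9* and *Ccl6*, which myeloid cells, among others, can make. *Ccl9* and *Ccl6* encode rodent CC chemokines that act on CCR1. *Ccl9* had levels of −1.77 and 0.60, a difference of 2.36 ± 0.21, or 5.15-fold. *Ccl6* had levels of 0.96 and 2.97, a difference of 2.01 ± 0.20, or 4.03-fold. Both were past 2-fold under median scaling, quantile normalization, cyclic loess and normexp background correction, with 1.95 and 1.85 under the last, which is short of 4-fold. *Ccl6* was also short of 4-fold with median scaling (1.83) and in the authors' normalized table (1.997). With the spike-in controls set equal, *Ccl9* had 1.26 and *Ccl6* 0.90. *Ccl24*, which encodes the eosinophil attractant eotaxin-2, was not well above background on the control array (−6.53) and stood at −4.04 on the array labelled RFF4, at least 2.77-fold higher. Bounds such as this were taken against the dimmest level called well above background on the array concerned, or the gene's own level where that was higher.

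Ligands of stroma and lymphoid tissue were at the edge of detection. *Cxcl12*, which stromal cells make for CXCR4, was not well above background on the control array (−7.37) and stood at −3.72 on the other, at least 3.45-fold higher, but its further probe was not well above background on either array. The log2 bound of 1.79 became 1.22 with normexp and 0.77 with the mean of both probes, which is short of 2-fold. *Ccl19* had levels of −3.65 and −3.31, a difference of 0.34 ± 0.28, but −0.28 at another probe above background on both arrays (levels of −3.75 and −4.03). It has near-identical pseudogenes that may share its signal. *Cxcl13*, the B cell follicle chemokine, was the only chemokine gene measured on the control array alone, at −5.14 against −6.50. No fold is given for it, because the detection floor of the array labelled RFF4 (−4.29) lay above its level on the control array. Stromal and endothelial markers gave no common direction, with 5 of 8 detected, 2 more than 2-fold higher and 1 lower. Their summed signals of 5.73 and 13.0 came mostly from *Kdr* (levels of 2.26 and 3.59). *Pdgfra*, *Cdh5* and *Lyve1* were not well above background on either array.

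The receptors by which T cells are placed in the gut were not all alike. CCR9, the receptor of CCL25, had near-equal mRNA signals on the arrays, with *Ccr9* at 4.98 and 5.19, a difference of 0.21 ± 0.20. *Cxcr6*, whose product retains T cells in tissues through CXCL16, was higher, at 5.74 and 7.14, a difference of 1.40 ± 0.20, or 2.64-fold, and its further probe gave 1.43. *Cxcr3*, the receptor gene for CXCL9 and CXCL10 and a mark of effector T cells, lay just past 2-fold, at 3.55 and 4.59, a difference of 1.04 ± 0.20. With quantile normalization *Cxcr6* had 1.04 and *Cxcr3* 0.99, and *Cxcr3* was also short of 2-fold with cyclic loess (0.97), median scaling (0.86) and normexp (0.84). With the spike-in controls set equal they had 0.29 and −0.07, and *Ccr9* had −0.90. *Cxcr6* lay within the range of other bright genes: those with a mean level of 6 to 7 had differences of −0.45 to 1.70 between the 5th and 95th percentiles (264 genes).

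**Figure D3:**
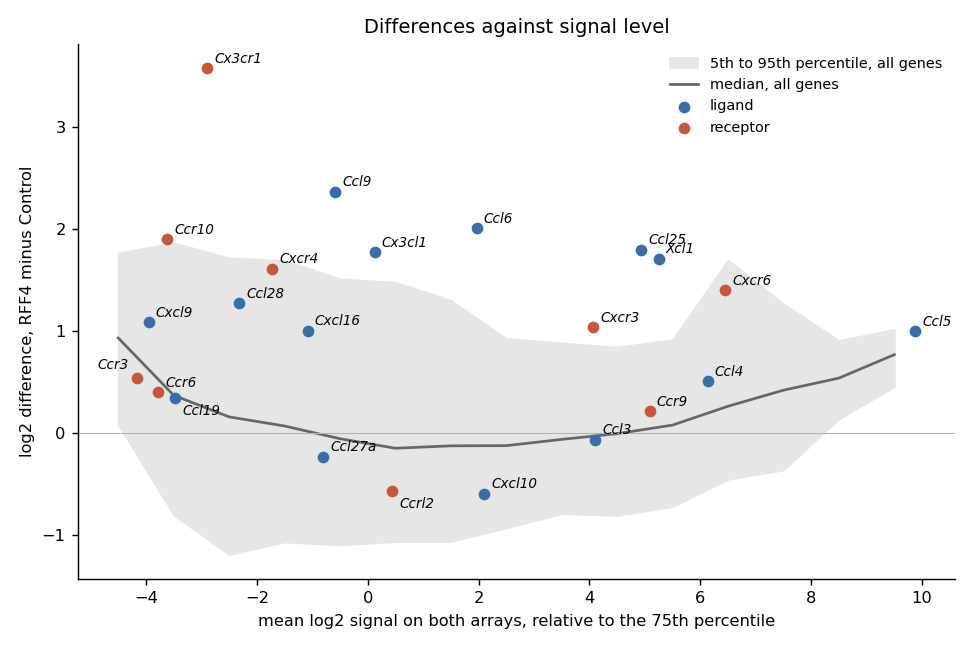
Log2 difference (RFF4 minus control) of 23 of the 24 chemokine genes above background on both arrays, against their mean level. The line and band give the median and the 5th to 95th percentile of all genes in steps of 1 log2 unit of level; the median of all genes runs from 0.93 at the dimmest levels through −0.15 to 0.77 at the brightest, where *Ccl5* lies.

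Receptors found on several kinds of leukocyte were dim. Of 5, 3 were above background on both arrays. Of these, 2 exceeded 2-fold in favour of the array labelled RFF4, beside 11.7% of all named genes above background on both. *Ccr10* had a control level below the detection floor of the array labelled RFF4 (−4.29). *Ccr8* and *Cxcr5* passed the background filter on that array alone, so they, like *Ccr10*, could only be higher there. *Cxcr4*, the receptor gene for CXCL12, had levels of −2.53 and −0.92, a difference of 1.61 ± 0.21, or 3.05-fold. *Ccr10*, the receptor gene for CCL28 that IgA plasma cells carry, had levels of −4.57 and −2.67, a difference of 1.90 ± 0.29, or 3.73-fold, which became 1.17 with normexp. *Ccr8*, a receptor of T helper 2 and regulatory T cells, was not well above background on the control array (−5.34) and stood at −2.40 on the other, at least 7.68-fold higher, but its further probe was not well above background on either array. The log2 bound of 2.94 became 1.504 with normexp and 1.57 with the mean of both probes, both short of 4-fold. *Cxcr5*, the receptor of follicular B and T cells, stood at −5.55, not well above background, and −4.10, at least 2.65-fold higher. *Ccr6*, whose ligand gene *Ccl20* was not well above background on either array, had levels of −3.99 and −3.58, a difference of 0.40 ± 0.32. At this brightness (mean level between −4 and −3) all genes had a median difference of 0.37 and a 95th percentile of 1.86, so that *Ccr10* lay just above that band and *Ccr6* within it.

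B and plasma cell genes, which include the partners of *Ccr10* and *Cxcr5* in those cells, were measured beside them. Of 8, 5 were detected, and 4 of these exceeded 2-fold in the same direction, among them *Jchain*, the joining chain of secreted IgA, at 1.68 and *Ms4a1*, which encodes CD20, at 1.79. The other, *Cd79b*, lay below 0, with levels of 3.42 and 3.17 and a difference of −0.26. The summed signals of the list were 26.4 and 58.6, mostly from *Jchain* (levels of 3.90 and 5.58) and *Cd79b*. The defining B cell genes *Cd79a* and *Pax5* were not well above background on either array. *Foxp3*, the regulatory T cell factor, had levels of −5.02 and −3.81. The part of such cells in the values of *Ccr10*, *Cxcr5* and *Ccr8* was not tested.

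*Cx3cr1*, the receptor of fractalkine, had the largest difference among the chemokine genes above background on both arrays. Intestinal macrophages carry this receptor, as do some effector T cells. Its level was −4.68 on the control array and −1.10 on the array labelled RFF4, a difference of 3.57 ± 0.29, or 11.9-fold. The control level lay below the detection floor of the array labelled RFF4 (−4.29), so the gene could pass on both arrays only if higher there. Its other probes were well above background on the array labelled RFF4 alone, with differences of 3.78 and 4.21 before any bound. The size depended on the background correction, as normexp gave 1.95, no more than for *Ccl9*, whereas cyclic loess gave 3.57. *Ccr3*, the eotaxin receptor of eosinophils, had levels of −4.42 and −3.88, a difference of 0.54 ± 0.38, and its sign was likewise fixed by the floors. *Ccrl2*, which binds chemerin without signalling and is grouped with the receptors by sequence, was lower on the array labelled RFF4, at 0.72 and 0.15, a difference of −0.57 ± 0.20.

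Macrophage, dendritic cell and granulocyte genes were measured beside *Cx3cr1*, *Ccl6* and *Ccl9*. Of 17 macrophage and dendritic cell markers, 14 were detected and 13 gave a difference, with 8 more than 2-fold higher, 0 more than 2-fold lower, 2 under 0 and a median of 1.04. The colony-stimulating factor receptor gene *Csf1r* had a difference of 1.45, the endotoxin co-receptor gene *Cd14* 1.57, and the complement genes *C1qa* and *C1qc* were at least 4.71-fold and 5.67-fold higher. The dendritic cell transcription factor genes *Zbtb46* and *Batf3* had −0.48 and −0.33, and the integrin gene *Itgax* 0.20. The summed signals of this list were 69.1 and 96.5, mostly from *Itgax* (levels of 5.52 and 5.73) and *Itgam* (4.32 and 5.24). *Cd163*, *Flt3* and *Clec9a* were not well above background on either array. The 4 MHC class II genes with a difference were all more than 4-fold higher, with a median of 2.92 and summed signals of 13.8 and 99.9. Of 7 mast cell and eosinophil markers, 6 were detected, 5 of them more than 2-fold higher, among them the eosinophil granule gene *Prg2* at 2.42, and 1 lower, *Kit* at −1.46. The summed signals of these markers were 11.5 and 12.3. In them the lower *Kit* (levels of 3.32 and 1.86) offset the higher *Mcpt1* (−0.17 and 2.25) and *Mcpt2* (−0.90 and 1.76). Of 5 neutrophil markers, all detected, 2 were more than 2-fold higher (*S100a8* at 2.69 and *S100a9* at 2.23), while *Elane* had 0.74, *Csf3r* −0.08 and *Mpo* −0.51. The summed signals of these markers, 194 and 185, came almost wholly from *Csf3r* (levels of 7.59 and 7.51). The part of any of these cells in the chemokine values was not tested.

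**Figure D4:**
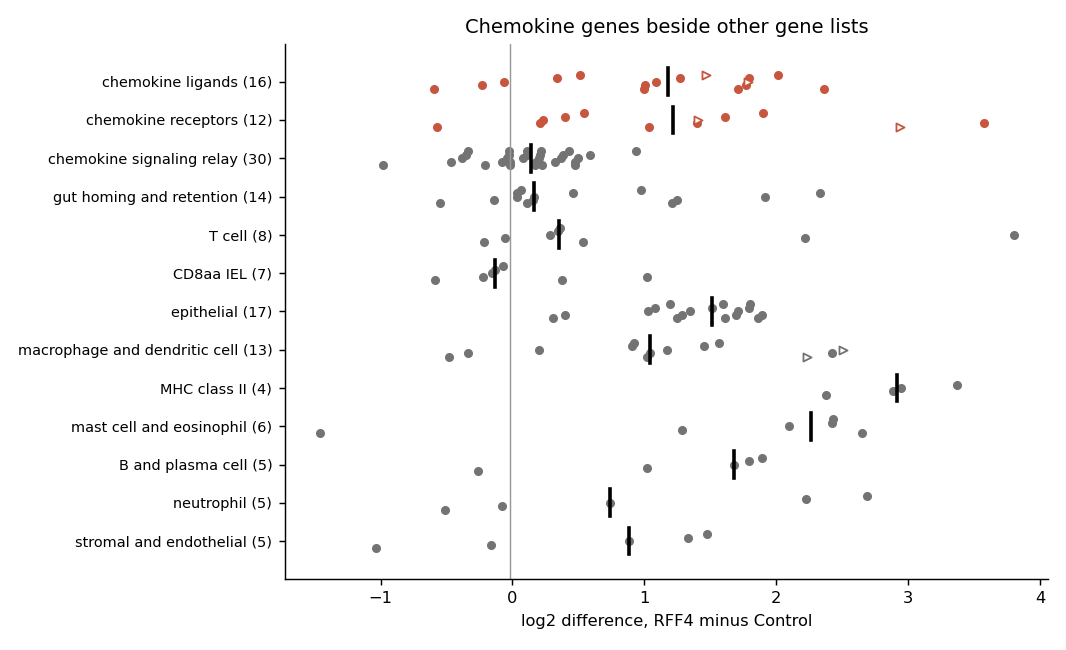
Log2 difference (RFF4 minus control) of each gene with a difference or bound (open triangles), for the chemokine ligands and receptors and for the other gene lists, with the number of genes in brackets. Black bars are list medians and the grey line is the median of all named genes; the relay list (median 0.14) sits near that line, the ligands (1.18), receptors (1.22) and epithelial genes (1.51) to its right, and setting the spike-in controls equal would shift every point by −1.11.

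The remaining 28 chemokine genes were not well above background on either array. Among the ligands these were the monocyte attractants *Ccl2*, *Ccl7*, *Ccl8* and *Ccl12*, the neutrophil attractants *Cxcl1*, *Cxcl2*, *Cxcl3* and *Cxcl5*, the eotaxins *Ccl11* and *Ccl26*, the CCR4 ligands *Ccl17* and *Ccl22*, and *Ccl1*, *Ccl20*, *Cxcl14*, *Cxcl15* and *Cxcl17*. Among the receptors they were *Ccr1*, *Ccr1l1*, *Ccr2*, *Ccr4*, *Cxcr1*, *Cxcr2*, *Xcr1* and the atypical scavenging receptors *Ackr1* to *Ackr4*. Several detected genes therefore had no detected partner. *Xcl1* was bright while *Xcr1* was not detected, and *Ccl6* and *Ccl9* were measured while *Ccr1* was not. For *Cxcr2* and *Ccr2*, neither the receptor nor the ligands named above were detected. Both sides were above background on both arrays for *Ccl25* and *Ccr9*, *Ccl28* and *Ccr10*, *Cxcl16* and *Cxcr6*, *Cx3cl1* and *Cx3cr1*, and *Cxcl9* and *Cxcl10* with *Cxcr3*. In the first pair the difference was 1.80 for the ligand and 0.21 for the receptor, in the next 1.27 and 1.90, then 1.002 and 1.40, and for fractalkine and its receptor 1.77 and 3.57. *Ccl27a*, a further ligand gene for CCR10, was also above background on both arrays, with a difference of −0.23.

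Many of these genes lie side by side in the genome, in groups taken here as chemokine genes at most 5 gene positions apart in the RefSeq order. On chromosome 11, *Ccl5*, *Ccl9*, *Ccl6*, *Ccl3* and *Ccl4* formed a group in which all 5 were above background on both arrays. In the other group of that chromosome (*Ccl2*, *Ccl7*, *Ccl11*, *Ccl12*, *Ccl8* and *Ccl1*) none of the 6 was detected. The 5 neighbouring CXC genes *Cxcl5*, *Cxcl3*, *Cxcl15*, *Cxcl1* and *Cxcl2* on chromosome 5 were also not detected. Differences varied between neighbours. Within the detected group of chromosome 11 they ran from −0.06 for *Ccl3* to 2.36 for *Ccl9*. Of its 5 genes, 2 were more than 2-fold higher, beside 11.7% of all named genes above background on both arrays. On chromosome 9, *Cx3cr1* and *Ccr8* are neighbours and both were more than 2-fold higher, but given the background filter both could only be higher. In a separate group of receptor genes on that chromosome, which holds *Ccr9*, *Cxcr6* and *Ccr3*, *Cxcr6* alone was more than 2-fold higher.

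Genes that relay the signal inside the cell differed little. Of 30 such genes, all well above background on both arrays, 0 were more than 2-fold higher and 0 lower, and their median difference was 0.14, with a range from −0.98 (*Pik3r5*, a regulatory subunit of PI3-kinase γ) to 0.94 (*Plcb3*, a phospholipase C). The Gi subunit gene *Gnai2* had levels of 6.08 and 6.45, the Rac exchange factor gene *Dock2* 1.86 and 1.84, and *Rgs1*, which shortens Gi signals, 7.99 and 7.61. Genes that act with chemokine receptors in homing were mixed, with 4 of 14 more than 2-fold higher and 0 lower. The higher ones included *Itgal*, the αL chain of the integrin LFA-1, at 2.33, the transcription factor gene *Klf2* at 1.25, and the hyaluronan receptor gene *Cd44* at 1.21. *Itgb7*, the β chain of the gut homing and αE integrins, had a difference of 0.07, and *Cd69*, which retains T cells in tissue, 0.03. Among the T cell genes, *Thy1*, which encodes CD90, had levels of 3.09 and 6.89, a difference of 3.80, and *Cd2* had 2.22, while *Cd3e*, *Lck* and *Zap70* had 0.35, 0.29 and −0.06.

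**Figure D5:**
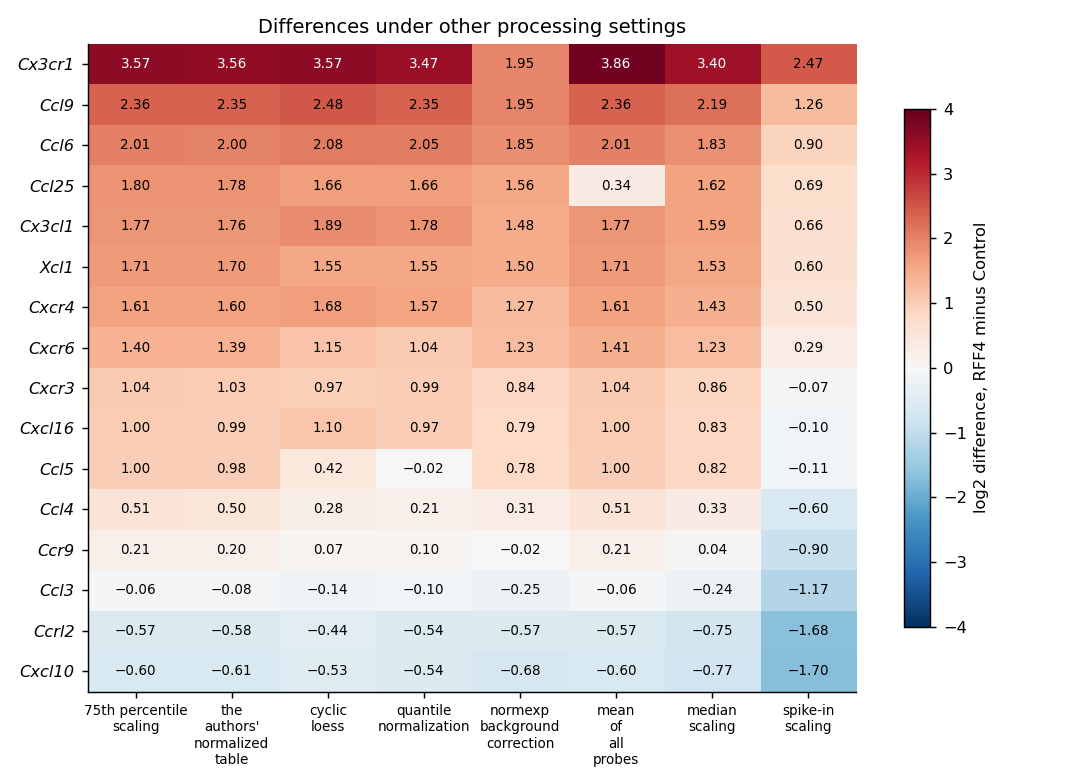
Log2 difference (RFF4 minus control) of 16 chemokine genes, all above background on both arrays, under the 75th percentile scaling used in the text and under 7 other settings (columns). Red is higher and blue lower on the array labelled RFF4. *Cx3cr1*, *Ccl9*, *Ccl6*, *Ccl25*, *Cx3cl1*, *Xcl1*, *Cxcr4* and *Cxcr6* stay above 0 in every column, although *Ccl25* drops to 0.34 when its probes are averaged. *Cxcr3*, *Cxcl16*, *Ccl5*, *Ccl4* and *Ccr9* lie below 0 with the spike-in controls set equal. *Ccl5* is also at −0.02 with quantile normalization and *Ccr9* at −0.02 with normexp.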

How the data were processed

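Gene expression was measured in sorted TCRαβ+CD8αα+ IELs on 2 Agilent arrays of 1 color, 1 per genotype, both on the same slide and scan. Per the file headers, the deposited intensity values were made by the authors' scanner software (Agilent Feature Extraction 10.7.1.1) by subtracting background, without normalization between arrays. The authors also deposited a normalized table of log2 values, in which all 55679 probes differ between arrays as in the scanner files, once 1.16 is added (tolerance 0.01). Its software settings are not given in the sources used here.

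Control and outlier spots were left out, log2 signals were taken, and the array's 75th percentile over gene spots was subtracted. Spots of a probe were averaged. A probe was taken as above background where 50% or more of its spots were marked so. Of the 55679 gene probes, 27509 were named by RefSeq accession (GRCm38.p6). A gene was given by its brightest probe. No spot was saturated. 1 receptor gene was left out and is not reported here. No array file holds a read depth, so the number of arrays limits the precision.

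Genes past 2-fold, the 10 brightest, detected genes of ligand-receptor pairs and *Ccrl2* were named with values. So were other detected members, except 1 that is counted but not reported by itself here. The atypical receptors *Ackr1* to *Ackr4* were not detected and are named without values. Other lists were signal relay, homing, and markers of T cells, CD8αα+ IELs, epithelium, myeloid cells, MHC class II, B and plasma cells, neutrophils, mast cells and eosinophils, stroma, innate lymphoid cells and T cells that the sort removes. The members, lists and roles were chosen with earlier results of these data known. In the CD8αα+ IEL list, 1 of 7 genes was more than 2-fold higher and 0 lower (median −0.14). Of 5 innate lymphoid markers 2 were detected, among them *Klrb1c* at −1.89.

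Values were computed with Python 3.11.15 (numpy 2.4.6, pandas 2.3.3), R 4.3.3 with limma 3.58.1 for quantile, cyclic loess and normexp (offset 50), and matplotlib 3.10.9. All steps were first tested on simulated data.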

Additional observations from a re-analysis of the deposited data

How the results depend on the processing

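With 1 array per genotype no array could be left out, and no paired analysis was possible because each group has 1 array. The 12 alternatives were chosen with earlier results known. The number of chemokine genes more than 2-fold higher (17) stayed between 13 and 17 under 10 of them, but became 3 with scaling on the spike-in controls (a shift of −1.11 for each measured difference by construction, with 1.46% of all genes higher and 55.7% lower) and 37 without filter and bounds (30.03% of all genes). More than 2-fold lower (0), it became 4 with spike-in controls, 1 without filter and bounds, and 1 with plain ratios in place of bounds (*Cxcl13*). Past 4-fold higher (4), it became 1 with spike-in controls, 0 with normexp and 8 without filter and bounds. The median of the ligands (1.18) became 1.00 with median scaling (an all-gene shift of −0.17), 1.03 with normexp, 1.00 with the mean of all probes and −0.021 with spike-in controls. That of the receptors (1.22) became 1.02 with quantile normalization, 1.04 with scaling to the median, 0.99 with normexp, 1.03 with cyclic loess, 0.79 over genes above background on both arrays and 0.11 with spike-in controls. Spike-in scaling also gave *Cxcl13* a value, so its medians cover 29 genes and not 28. Under it 9 of 26 named genes turned from above to below 0, and of these *Cxcl16* (−0.10), *Cxcl9* (−0.021) and *Cxcr3* (−0.069) had been more than 2-fold higher. The cause of the other shifts was not tested. Of 26 named genes, all 26 moved by less than the technical SD over all levels (0.14) with the authors' table. By more than this moved 22 with normexp, 26 with median scaling, 26 with spike-in controls, 8 with cyclic loess and 9 with quantile normalization. Under the last, *Ccl5* (0.997) became −0.02. Low signal limits the genes near the detection floor, which was −5.51 on the control array and −4.29 on the other.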
